A study of Mus musculus with 3 samples.

Results

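The genes of the Bcl2 family set whether a lymphocyte lives or dies, and 9 of them were followed in CD8 T cells of mice on 3 expression arrays. They were Bcl2, Bcl2l1 and Mcl1, which protect cells, Bax and Bak1, which open the mitochondrion, and the triggers Bcl2l11, Bid, Bbc3 and Pmaip1. Their probe sets, the groups of short probes that measure 1 transcript, were found by gene symbol and Entrez identifier, without use of any measured value. The genes themselves were chosen with earlier results of these data known. Of the 9 genes, 8 were found with 27 probe sets, among 18194 named genes and 45101 probe sets in all, and Bax was not analysed here because no probe set carried its name alone. In 2 of the groups, VILLIN-HA/CL4-TCR and then Villin-HA + CL4-TCR, called the HA arrays here, the CD8 T cells recognise influenza hemagglutinin (HA) through a transgenic receptor, and HA itself is driven in gut epithelium by the villin promoter. The CL4-TCR array holds T cells with the same receptor and no Villin-HA in its name, so the receptor is shared by all 3 groups. The tissue label is MLN, the mesenteric lymph node, and strain, age, sex and any pooling of animals are not labelled. The submitters list ordinary, in vivo activated and in vivo generated regulatory CD8 T cells, but no label ties the activated or the regulatory cells to VILLIN-HA/CL4-TCR or to Villin-HA + CL4-TCR. Each group holds 1 array, so there is no replicate spread, no test and no p-value, and every difference is one between single arrays.

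In the intrinsic death pathway, the Bax and Bak1 proteins form pores in the outer mitochondrial membrane, and cytochrome c then leaks out and starts the caspase cascade. The survival proteins Bcl2, Bcl-xL (from Bcl2l1) and Mcl1 hold these effectors in check. The BH3-only proteins Bim (from Bcl2l11), Bid, Puma (from Bbc3) and Noxa (from Pmaip1) bind the survival proteins and release the effectors. In CD8 T cells, Bim is known for deleting self-reactive cells and for ending immune responses, Bcl2 for keeping naive and memory cells alive, and Bcl-xL for being induced by receptor and CD28 signals.

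The values are MAS5 signals on a linear scale, and signals below 31.7, the median of all values, were raised to this floor. A gene is called measured in a comparison where its higher signal lay above the floor, and higher or lower where the ratio was at least 2-fold, which is 1 on the log2 scale. Where the lower signal lay at the floor, the difference is a bound. The floor was passed by 10342 genes in VILLIN-HA/CL4-TCR cells, 11422 in Villin-HA + CL4-TCR cells and 10271 in CL4-TCR cells. The CD8 markers were present: the 10 named of 12 had summed signals of 26399, 27062 and 27236 in that order. Ptprc was the largest part of these sums, at 11458.9, 11082.2 and 11134.3, and single genes were less even. Cd8a had 2892.7, 3149.3 and 2714, Cd8b1 had 1089, 1942.7 and 1642, Cd2 had 714.1, 1257.2 and 2308.3, and Cd5 had 2773.8, 1299.7 and 2328.8. Cd4 and Vil1 lay below the floor on each array, but other genes of their lists did not. Of the CD4 T cell list, Foxp3 had 38.2, 86.4 and 29.6, and Zbtb7b had 18.2, 24.9 and 60.9. Of 6 epithelial genes, 1, 4 and 2 lay above the floor, and Epcam had 48.9, 70.9 and 74.8. Other transcripts differed between the arrays. The 9 named proliferation genes summed to 15032, 20476 and 4184, 14 myeloid and dendritic genes to 1711, 2340 and 350.4, and 8 skeletal muscle genes to 179.4, 5640 and 179.7. The 5 named B cell genes summed to 590.1, 375.9 and 304.9, and 4 plasma cell genes to 1960.4, 2158.4 and 1626.1. The B cell gene Ms4a1 had 147.2, 52.5 and 55.8, and the plasma cell gene Jchain had 177.7, 74.9 and 61. Others in these lists ordered the HA arrays the other way: Cd79b had 199.1, 233.1 and 110.5, and Xbp1 had 1695.4, 2036.4 and 1520.8. Xbp1 made up most of the plasma cell sums. Cd79a and Sdc1 lay below the floor on each array. The ratio of the 3′ to the 5′ Gapdh control probe set, a measure of how complete the labelled RNA was, was 46.2, 3.35 and 18.4. The same ratio for Actb was 2.46, 1.80 and 1.98, so the 2 controls differed in how far apart they put the arrays. Xist, which female cells express, had signals of 2.5, 1339 and 5442.5, and the Y-linked gene Eif2s3y had 1496, 746.9 and 13.4, so the sex of the mice and the group cannot be told apart. Only the Villin-HA + CL4-TCR array had both above the floor, and whether it holds RNA of mice of both sexes was not tested. The part of these differences in the results below was not tested.

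On both HA arrays, Bcl2l11 and Bcl2l1 were at least 2-fold higher than in CL4-TCR cells by the brightest probe set of each gene. By the same measure, Bcl2 was at least 2-fold lower in Villin-HA + CL4-TCR cells and Bbc3 in VILLIN-HA/CL4-TCR cells. Of the 5 Bcl2 probe sets, all 5 were below CL4-TCR in VILLIN-HA/CL4-TCR cells and 4 in Villin-HA + CL4-TCR cells. A lower or higher signal in such bulk RNA can come from the number of cells of a type or from the RNA per cell, and these cannot be told apart. Each gene was represented by its brightest probe set on average, called the leading one here. By it, 3 of 8 members passed 2-fold in VILLIN-HA/CL4-TCR cells against the CL4-TCR array, Bcl2l1 and Bcl2l11 being higher and Bbc3 lower. Across all 11260 measured genes, 14.1% passed 2-fold, with 7.43% higher and 6.63% lower. In Villin-HA + CL4-TCR cells, 4 of 8 passed 2-fold, Bcl2l1, Bcl2l11 and Pmaip1 being higher and Bcl2 lower, against 21.4% of 12196 measured genes, with 11.9% higher and 9.53% lower. These comparisons share the CL4-TCR array. The 8 members are few and were chosen with earlier results of these data known. Their counts therefore cannot be set apart from the shares over all genes. The median log2 difference of the 8 members was -0.04 and 0.04 on the HA arrays in the order above, beside -0.04 and 0.06 over all measured genes, so the members' medians lay close to those of all genes.

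**Figure D1:**
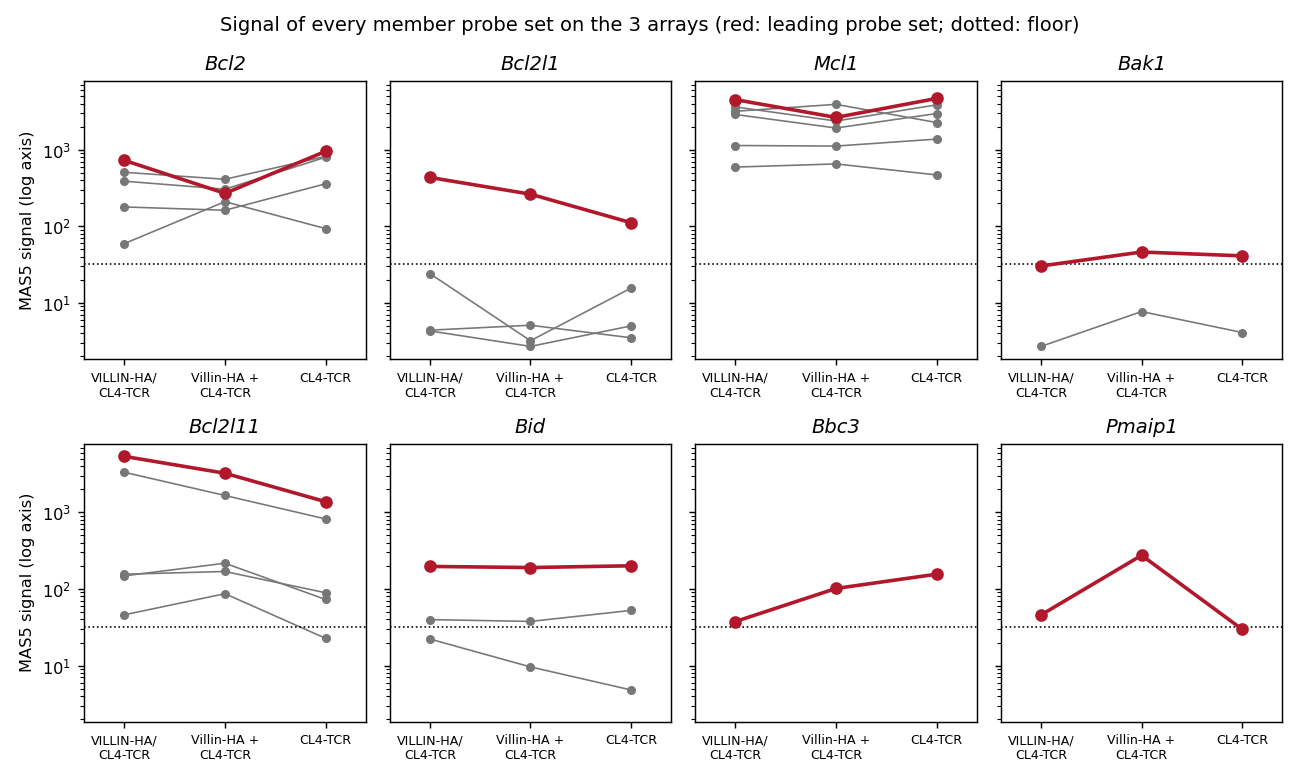
MAS5 signal (log axis) of each probe set of the 8 members on the VILLIN-HA/CL4-TCR, Villin-HA + CL4-TCR and CL4-TCR arrays, with the leading probe set in red, the others in grey and the floor of 31.7 dotted. Each point is 1 array. The leading probe sets of Bcl2l11 and Bcl2l1 are highest in VILLIN-HA/CL4-TCR and lowest in CL4-TCR cells, Pmaip1 stands out in Villin-HA + CL4-TCR cells, and the probe sets of Mcl1 cross.

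Promoters of 4 members past 2-fold are shown, so that the genes that were higher can be read beside those that were lower. By leading probe sets and at 2-fold, Bcl2l11 and Bcl2l1 were higher on both HA arrays. Bcl2 was lower in Villin-HA + CL4-TCR cells and Bbc3 was lower in VILLIN-HA/CL4-TCR cells. The sequences are from RefSeq on GRCm38.p6, where 8 of the 9 genes have an entry, and cover 250 bases before to 50 after the start of the gene, read along its strand. Where a gene has several starts, the one farthest upstream is given. Capitals mark matches on either strand to GTAAACA, the FOXO motif, or GGGCGG, the GC box, which may overlap where they adjoin.
Bcl2l11 (chr2:128125788-128126087, plus strand): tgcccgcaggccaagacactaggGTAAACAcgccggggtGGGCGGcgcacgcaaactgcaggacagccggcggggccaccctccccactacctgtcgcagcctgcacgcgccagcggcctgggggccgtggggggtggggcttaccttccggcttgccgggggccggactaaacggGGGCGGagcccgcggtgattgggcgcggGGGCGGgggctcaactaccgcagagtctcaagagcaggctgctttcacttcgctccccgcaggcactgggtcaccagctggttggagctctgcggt
Bcl2l1 (chr2:152831679-152831978, minus strand): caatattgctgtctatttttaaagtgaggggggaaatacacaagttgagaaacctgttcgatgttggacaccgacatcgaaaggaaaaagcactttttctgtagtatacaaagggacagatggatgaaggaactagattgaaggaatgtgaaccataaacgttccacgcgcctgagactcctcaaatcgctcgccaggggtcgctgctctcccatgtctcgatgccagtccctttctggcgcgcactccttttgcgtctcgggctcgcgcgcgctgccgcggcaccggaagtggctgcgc
Bcl2 (chr1:106714241-106714540, minus strand): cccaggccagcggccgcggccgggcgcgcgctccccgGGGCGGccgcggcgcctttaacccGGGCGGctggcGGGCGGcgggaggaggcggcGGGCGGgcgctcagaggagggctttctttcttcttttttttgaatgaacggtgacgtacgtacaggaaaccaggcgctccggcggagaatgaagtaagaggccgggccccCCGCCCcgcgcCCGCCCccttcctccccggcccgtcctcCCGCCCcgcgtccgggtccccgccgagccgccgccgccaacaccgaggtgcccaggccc
Bbc3 (chr7:16309333-16309632, plus strand): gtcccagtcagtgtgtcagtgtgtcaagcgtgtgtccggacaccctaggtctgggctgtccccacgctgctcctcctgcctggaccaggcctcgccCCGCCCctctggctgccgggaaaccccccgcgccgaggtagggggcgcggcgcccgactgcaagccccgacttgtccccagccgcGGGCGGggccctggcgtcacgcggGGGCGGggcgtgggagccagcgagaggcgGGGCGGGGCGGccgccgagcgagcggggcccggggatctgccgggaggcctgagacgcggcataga

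The Bcl2l11 promoter held 1 FOXO match, 227 bases before the start, and 3 GC boxes. The Bcl2 promoter held 7 GC boxes and that of Bbc3 held 5, while the Bcl2l1 promoter held neither motif. Another Bbc3 start had a FOXO match 167 bases before it. Of 32851 promoter entries of the same length, 3.65% held the FOXO motif and 35.7% a GC box. None of 6 other motifs was found in the 4 windows printed. The STAT motif TTCNNNGAA was in 8.30% of all entries and the AP-1 motif TGANTCA in 7.81%. The E-box CACGTG was in 7.15%, the CRE motif TGACGTCA in 1.79%, the Egr motif GCGTGGGCG in 0.612% and the TATA box, searched as TATAAA, in 13.6%. The share of G and C was 71.0% for Bcl2l11, 52.3% for Bcl2l1, 76.0% for Bcl2 and 76.0% for Bbc3, beside a median of 52.7% over all entries. These matches describe the letters of the windows and were not tested for binding.

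Bcl2, the founding survival gene of the family, had lower signals on both HA arrays by most of its probe sets. The leading probe set, 1440770_at, had signals of 726.1 in VILLIN-HA/CL4-TCR and 269.1 in Villin-HA + CL4-TCR cells, against 952.3 in CL4-TCR cells. The log2 differences from CL4-TCR were -0.39 and -1.82, and in Villin-HA + CL4-TCR cells this was a 3.54-fold lower signal, which 1.73% of measured genes matched or exceeded in that direction. All 5 Bcl2 probe sets lay above the floor on every array. In VILLIN-HA/CL4-TCR cells all 5 were below CL4-TCR, from -1.04 to -0.39 with a median of -0.69, and 2 of them passed 2-fold. With the median signal of the gene's probe sets on each array in place of the leading one, Bcl2 was lower there by 2-fold, at -1.04.

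In Villin-HA + CL4-TCR cells 4 of the 5 Bcl2 probe sets were below CL4-TCR and 3 passed 2-fold, with a median of -1.15. The exception was 1437122_at, with 59.4 in VILLIN-HA/CL4-TCR and 209.6 in Villin-HA + CL4-TCR cells, against 93.4 in CL4-TCR cells, which is 2.24-fold higher in Villin-HA + CL4-TCR cells. It is the dimmest of the Bcl2 probe sets in CL4-TCR cells, and which part of the transcript it covers was not analysed here. Probe sets of 1 gene differed from each other by 0.43 on the log2 scale (pooled SD) in the VILLIN-HA/CL4-TCR comparison and 0.65 in the Villin-HA + CL4-TCR comparison, over 4175 and 4181 genes. This disagreement is the only measure of error at hand and leaves out differences between animals.

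Bcl2l1, which encodes Bcl-xL, was higher on both HA arrays by the only one of its 4 probe sets that lay above the floor. Probe set 1420888_at had signals of 434.2 in VILLIN-HA/CL4-TCR and 262.6 in Villin-HA + CL4-TCR cells, against 111.3 in CL4-TCR cells. These are 3.90-fold and 2.36-fold higher, with log2 differences of 1.96 and 1.24. Of all measured genes, 2.17% and 8.06% were at least as far above CL4-TCR. The other 3 probe sets had signals between 2.7 and 24.1 on every array and say nothing of a direction, so this result rests on 1 probe set.

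Mcl1, a survival protein with a short life in the cell, showed no 2-fold difference by any of its 6 probe sets, all above the floor. The leading one, 1437527_x_at, had signals of 4504 in VILLIN-HA/CL4-TCR and 2640.4 in Villin-HA + CL4-TCR cells, against 4673.5 in CL4-TCR cells, with log2 differences of -0.05 and -0.82. With arrays scaled to the same median, the difference of the Villin-HA + CL4-TCR array was -1.03, and scaled to housekeeping genes it was -1.06, both past 2-fold. The probe sets divided by kind. The 3 whose name ends in _x_at, which marks probes that can match other transcripts, gave -0.82, -0.70 and -0.63 in Villin-HA + CL4-TCR cells. Of the other 3, 1448503_at gave 0.79, 1416881_at 0.48 and 1416880_at -0.30. Without the _x_at probe sets the leading one would be 1448503_at, at 3177.7 and 3910.8 on the HA arrays against 2262.8 in CL4-TCR cells, so the direction of Mcl1 is not settled.

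The effector gene Bak1 was dim and differed little. Its leading probe set had signals of 30.3 in VILLIN-HA/CL4-TCR and 46.1 in Villin-HA + CL4-TCR cells, against 41.1 in CL4-TCR cells. The VILLIN-HA/CL4-TCR value lay under the floor, and the log2 difference of the Villin-HA + CL4-TCR array was 0.17. The other Bak1 probe set stayed between 2.7 and 7.7 on all arrays.

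Bcl2l11, whose product Bim is the main BH3-only trigger of T cell deletion, was higher on both HA arrays by each of its 5 probe sets. The leading one, 1456005_a_at, had signals of 5392.6 in VILLIN-HA/CL4-TCR and 3246.5 in Villin-HA + CL4-TCR cells, against 1381.1 in CL4-TCR cells. The signals were 3.90-fold and 2.35-fold higher than in CL4-TCR cells, with log2 differences of 1.97 and 1.23. At least as far above CL4-TCR were 2.16% and 8.13% of measured genes. The bright probe set 1435448_at had signals of 3343.2 and 1664.1 against 821.8, and gave 2.02 and 1.02.

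The 3 dimmer Bcl2l11 probe sets had the opposite order of the HA arrays. Probe set 1435449_at had 148.4 in VILLIN-HA/CL4-TCR and 217 in Villin-HA + CL4-TCR cells, against 73 in CL4-TCR cells. Probe set 1456006_at had 155.9 and 169.2 against 89.3, and 1426334_a_at had 46 and 86.8 against 22.7, the CL4-TCR value being below the floor. In all, 3 of 5 probe sets passed 2-fold in VILLIN-HA/CL4-TCR cells and 4 of 5 in Villin-HA + CL4-TCR cells. With the median of the probe sets in place of the leading one, the VILLIN-HA/CL4-TCR difference was 0.80 and short of 2-fold, and with arrays scaled to housekeeping genes the Villin-HA + CL4-TCR difference was 0.997, just short of it.

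Bbc3, which encodes Puma, a BH3-only protein induced by p53 and by cytokine withdrawal, was lower in VILLIN-HA/CL4-TCR cells. Its single probe set had signals of 37.6 in VILLIN-HA/CL4-TCR and 101.6 in Villin-HA + CL4-TCR cells, against 156 in CL4-TCR cells. The log2 differences from CL4-TCR were -2.05 and -0.62, and the VILLIN-HA/CL4-TCR signal was 4.15-fold lower. Of 11260 measured genes, 75 were at least as far below CL4-TCR on that array. The VILLIN-HA/CL4-TCR signal lay near the floor, and under a floor raised to the 65th percentile the log2 difference was -1.19, a bound.

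Pmaip1, which encodes Noxa, a partner of Mcl1, stood out in Villin-HA + CL4-TCR cells. Its single probe set had signals of 45.8 in VILLIN-HA/CL4-TCR and 275.2 in Villin-HA + CL4-TCR cells, against 29.7 in CL4-TCR cells, which lay below the floor. It was at least 8.68-fold higher in Villin-HA + CL4-TCR cells, and 140 of 12196 measured genes, or 1.15%, were at least as far above CL4-TCR. On the log2 scale this bound is 3.12, and 2.00 under a floor raised to the 65th percentile. In VILLIN-HA/CL4-TCR cells the log2 difference was at least 0.53. Skeletal muscle, stromal and myeloid transcripts were also higher in Villin-HA + CL4-TCR cells, at sums of 5640, 749 and 2340 against 179.7, 121.5 and 350.4 in CL4-TCR cells, and their part in the Pmaip1 signal was not tested.

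Bid, which links death receptors to the mitochondrion once caspases cut it, differed least among the 8 members in both comparisons with CL4-TCR, by leading probe set. Its leading probe set had signals of 197 in VILLIN-HA/CL4-TCR and 190.6 in Villin-HA + CL4-TCR cells, against 200.9 in CL4-TCR cells, with log2 differences of -0.03 and -0.08. Another probe set, 1447873_x_at, had 39.8 and 37.7 against 52.5. The remaining one stayed below the floor.

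**Figure D2:**
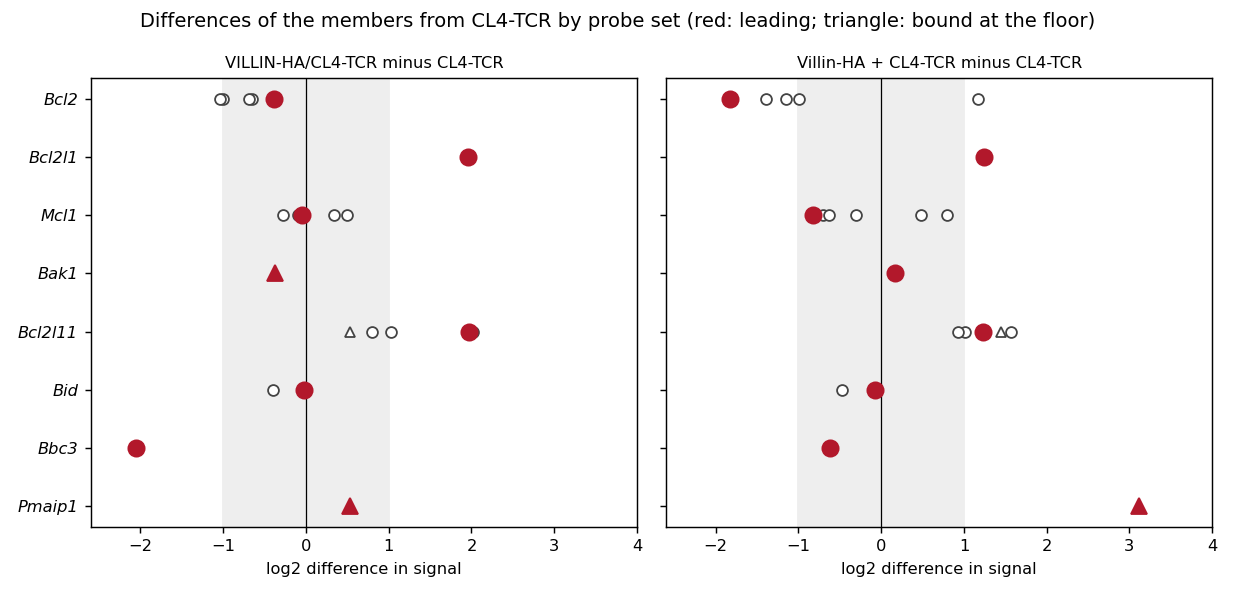
log2 difference in signal from CL4-TCR of each measured member probe set, for VILLIN-HA/CL4-TCR (left) and Villin-HA + CL4-TCR (right), with the leading probe set filled in red, triangles for bounds at the floor and the band within 2-fold in grey. All Bcl2l11 probe sets lie right of 0 in both panels, 4 of 5 Bcl2 probe sets lie left of 0 on the right, and those of Mcl1 lie on both sides.

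Set against each other within an array, the signal of Bcl2l11 was higher relative to Bcl2 on both HA arrays than in CL4-TCR cells. By leading probe sets, the log2 difference of Bcl2l11 exceeded that of Bcl2 by 2.36 in VILLIN-HA/CL4-TCR cells and by 3.06 in Villin-HA + CL4-TCR cells. Over the 20 pairs of a Bcl2l11 and a Bcl2 probe set that lay above the floor on all arrays, all 20 were above 0 in VILLIN-HA/CL4-TCR cells, from 1.20 to 3.06, and 18 of 20 in Villin-HA + CL4-TCR cells, from -0.24 to 3.40. Relative to Mcl1, all 24 pairs were above 0 on both, with medians of 1.39 and 1.59. Relative to Bcl2l1, Bcl2l11 did not gain: the leading probe sets differed by 0.00 and -0.01, and the medians of 4 pairs were -0.47 and -0.11. Scaling of the arrays cancels in these values. The pairs share probe sets and are not independent. In VILLIN-HA/CL4-TCR cells each Bcl2l11 probe set was above CL4-TCR and each Bcl2 probe set below it. All 20 of those pairs therefore had to be above 0, and their count adds nothing to the separate results.

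By leading probe sets, Bcl2l11 and Bcl2l1 were each other's nearest gene in pattern. Among 9013 other genes above the floor on all 3 arrays, and by the Euclidean distance of centred log2 signals, they lay 0.00496 apart, and the next nearest to both were Mxd4 and Tubb2b, at 0.0802 and 0.0806 from Bcl2l1. The nearest to Bbc3 was Il7r, the receptor for the survival cytokine interleukin 7, at 0.0268, followed by Lat and Rps27. This too rests on the leading Il7r probe set. The other gave log2 differences of -2.79 and -1.25 on the HA arrays, beside -2.05 and -0.62 for Bbc3. The nearest to Bcl2 were Tm6sf1, Eya3 and Taf1a, at 0.0116, 0.0241 and 0.0504. Pmaip1 was not above the floor on all arrays and was left out. The 3 dimmer Bcl2l11 probe sets order the HA arrays the other way, so the likeness to Bcl2l1 rests on the leading probe set. The distances rest on 3 values a gene and describe these arrays only.

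**Figure D3:**
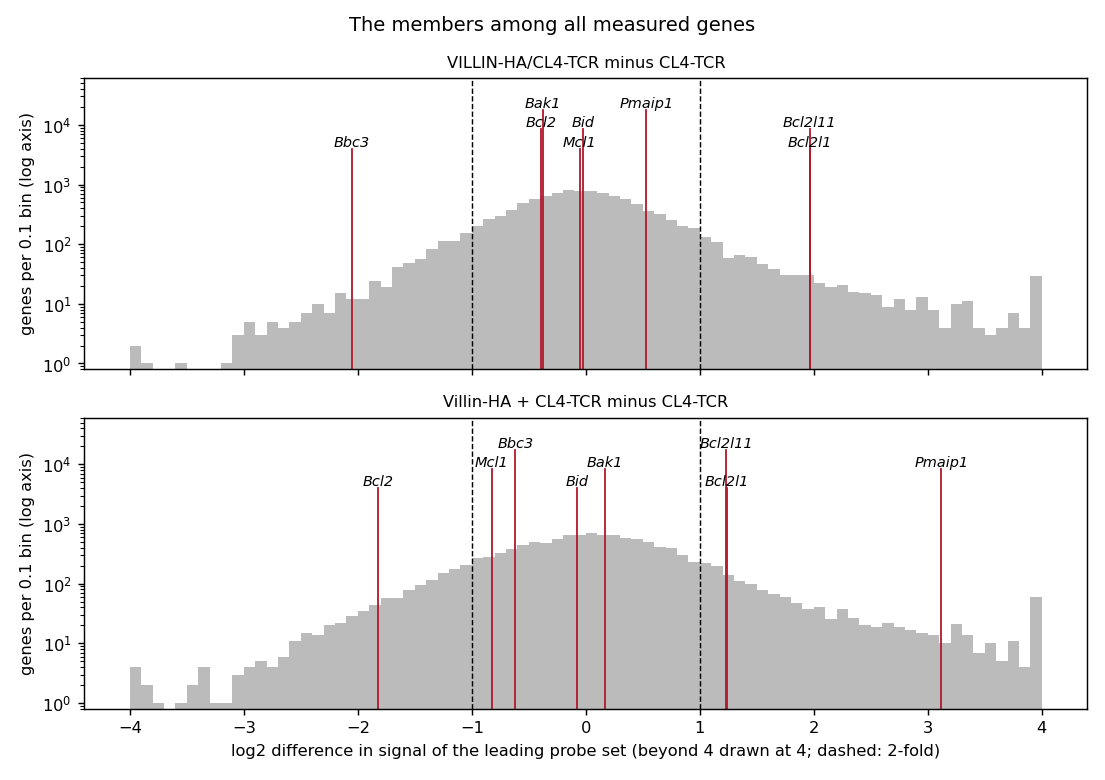
Number of measured genes (log axis) by log2 difference of the leading probe set, for VILLIN-HA/CL4-TCR minus CL4-TCR (top) and Villin-HA + CL4-TCR minus CL4-TCR (bottom), with the 8 members as red lines and 2-fold dashed. Bbc3, Bcl2l1 and Bcl2l11 lie outside 2-fold in the top panel, and Bcl2, Bcl2l1, Bcl2l11 and Pmaip1 in the bottom panel.

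Between the HA arrays, VILLIN-HA/CL4-TCR against Villin-HA + CL4-TCR, 3 of 8 members passed 2-fold, beside 15.1% of 12081 measured genes, with 6.13% higher and 8.95% lower. Pmaip1 had 45.8 against 275.2 and was 6.01-fold lower in VILLIN-HA/CL4-TCR cells. Bbc3 had 37.6 against 101.6 and was 2.70-fold lower, with a log2 difference of -1.43 that shrank to -0.57 with the floor at the 65th percentile. Bcl2 had 726.1 against 269.1 and was 2.70-fold higher by its leading probe set, but its 5 probe sets ran from -1.82 to 1.43 with a median of 0.30, and the median signal over probe sets gave 0.53. Bcl2l11 and Bcl2l1 had log2 differences of 0.73 each by leading probe set, short of 2-fold. The bright Bcl2l11 probe set 1435448_at gave 1.01 and the dimmer 3 gave -0.92, -0.55 and -0.12, so the order of Bcl2l11 between the HA arrays is not settled. Neither is that of Mcl1, from -0.30 to 0.77.

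The rest of the family was read from lists of related genes. Among the 4 other BH3-only genes, all measured, Bmf, whose product is held at the cytoskeleton, had signals of 247.4 in VILLIN-HA/CL4-TCR and 134.2 in Villin-HA + CL4-TCR cells, against 50.2 in CL4-TCR cells. This is 4.93-fold and 2.67-fold higher, and rests on 1 of 3 Bmf probe sets, the one above the floor. Bik had 7.2 and 83.9 against 35.4, 2.37-fold higher in Villin-HA + CL4-TCR cells and at least 2.65-fold lower in VILLIN-HA/CL4-TCR than in Villin-HA + CL4-TCR cells, and another Bik probe set gave -0.35 in Villin-HA + CL4-TCR cells against CL4-TCR. Bad, which is switched off by phosphorylation, had 177.5 and 250.8 against 178.5, and Hrk had 39.5 and 47.1 against 30.3. The effector-like gene Bok had 26.9 and 11.4 against 32.9.

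Of the other survival genes, Bcl2l2, which encodes Bcl-w, had signals of 80.5 in VILLIN-HA/CL4-TCR and 34.3 in Villin-HA + CL4-TCR cells, against 37.5 in CL4-TCR cells. By this leading probe set it was 2.15-fold higher in VILLIN-HA/CL4-TCR cells and 2.35-fold higher there than in Villin-HA + CL4-TCR cells. The 2 lower signals lay near the floor. Of its 4 probe sets 2 were measured in these comparisons. The other gave at least 0.78 in each, a bound because its lower signals lay at the floor, so whether it passed 2-fold is not settled. Bcl2l10 lay below the floor on all 3 arrays. The near-identical copies of Bcl2a1, a survival gene induced by NF-kappaB, share their probe sets, so no value can be given to 1 copy. The probe set 1419004_s_at, annotated with 3 of the copies, had signals of 1440.6 in VILLIN-HA/CL4-TCR and 1832.5 in Villin-HA + CL4-TCR cells, against 127.1 in CL4-TCR cells. It was 11.3-fold and 14.4-fold higher. The myeloid genes, at sums of 1711 and 2340 against 350.4, were also higher, and their part in this result was not tested. They did not move as 1 group: Lyz2 had 817.3 in VILLIN-HA/CL4-TCR, 312.2 in Villin-HA + CL4-TCR and 84.5 in CL4-TCR cells, and S100a8 had 12.9, 738.7 and 9.5. Another probe set with the same annotation had 32 and 50.3 against 25.4, and a further one annotated with 4 copies stayed between 1.9 and 7.3. These probe sets stand outside the members and all counts.

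Of 9 named genes of Bcl2-related proteins, 2 were higher in VILLIN-HA/CL4-TCR and 3 in Villin-HA + CL4-TCR cells, and none was lower. Over all measured genes 7.43% and 11.9% were higher, and a count over 9 genes is too small to set apart from these shares. Bnip3, a mitochondrial protein of mitophagy, had 164.5 and 258.6 against 60.2 in CL4-TCR cells, 2.73-fold and 4.30-fold higher. Bcl2l12 was 2.21-fold higher in VILLIN-HA/CL4-TCR cells, and Bcl2l14 and the Hsp70 cochaperone gene Bag1 were 2.20-fold and 2.18-fold higher in Villin-HA + CL4-TCR cells. Bcl2l14 was 2.25-fold lower in VILLIN-HA/CL4-TCR than in Villin-HA + CL4-TCR cells. Becn1, an autophagy gene, had 1884.5 and 1937.2 against 1941.8. Bcl2l13, Bcl2l15, Bnip1 and Bnip2 did not pass 2-fold in any of the 3 comparisons.

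Downstream of the mitochondrion, 17 of the 19 listed genes of the apoptosome, caspases and their inhibitors were named and measured, with 2 higher in VILLIN-HA/CL4-TCR and 3 in Villin-HA + CL4-TCR cells and none lower. Over all measured genes 7.43% and 11.9% were higher and 6.63% and 9.53% lower, and counts over 17 genes are too small to set apart from these shares. The medians of the list were 0.42 and 0.47, beside -0.04 and 0.06 over all genes. Birc5, which encodes survivin, a protein of dividing cells, had signals of 241.5 and 590.6 against 35.8 in CL4-TCR cells, 6.75-fold and 16.5-fold higher. The proliferation genes, of which Birc5 is one, were higher for 7 of 9 and 9 of 9. Vdac3, a channel of the outer mitochondrial membrane, was 2.03-fold and 2.30-fold higher, and Apaf1, the scaffold of the apoptosome, was 2.68-fold higher in Villin-HA + CL4-TCR cells, at 380.6 against 142. Casp8 and Birc5 were 2.44-fold and 2.45-fold lower in VILLIN-HA/CL4-TCR than in Villin-HA + CL4-TCR cells.

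The death receptor list had 8 measured genes in the VILLIN-HA/CL4-TCR comparison, with 2 higher and 1 lower than CL4-TCR. It had 9 in the Villin-HA + CL4-TCR comparison, with 3 higher and 1 lower. Over all measured genes 14.1% and 21.4% passed 2-fold, and counts over so few genes are too small to set apart from these shares. Fas, the receptor itself, had signals of 304 and 279.4 against 109.2 in CL4-TCR cells, 2.78-fold and 2.56-fold higher. Its ligand gene Fasl had 25.7 and 202.5 against 19.9, at least 6.39-fold higher in Villin-HA + CL4-TCR cells, and at least 6.39-fold lower in VILLIN-HA/CL4-TCR than in Villin-HA + CL4-TCR cells. Tnfsf10, which encodes the death ligand TRAIL, was 2.02-fold higher in VILLIN-HA/CL4-TCR than in CL4-TCR cells and 2.15-fold higher than in Villin-HA + CL4-TCR cells by its leading probe set. Against CL4-TCR, its 3 probe sets ran from 0.77 to 1.73 in VILLIN-HA/CL4-TCR cells and from -0.08 to 1.49 in Villin-HA + CL4-TCR cells. Between the HA arrays they ran from -0.30 to 1.10. Tnfrsf1b, a TNF receptor gene, was 2.19-fold higher in Villin-HA + CL4-TCR cells. The adaptor gene Fadd was 2.05-fold lower in VILLIN-HA/CL4-TCR cells. Cflar, an inhibitor of caspase 8, had 271.8 and 155.8 against 474.3, 3.04-fold lower in Villin-HA + CL4-TCR cells, though its 5 probe sets ran from -1.61 to 0.72 there.

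Of 15 measured cytokine receptor and transcription factor genes, 4 were higher and 2 lower in VILLIN-HA/CL4-TCR cells, and 5 higher and none lower in Villin-HA + CL4-TCR cells. Over all measured genes 14.1% and 21.4% passed 2-fold, in both directions. Il7r had signals of 1358.9 and 3676.9 against 5515.3 in CL4-TCR cells, 4.06-fold lower in VILLIN-HA/CL4-TCR cells. In Villin-HA + CL4-TCR cells its leading probe set gave -0.58 and the other -1.25, past 2-fold. Foxo1, a transcription factor of resting T cells, was 2.30-fold lower in VILLIN-HA/CL4-TCR cells. It was 1.99-fold lower in Villin-HA + CL4-TCR cells, just short of 2-fold, its 4 probe sets running from -0.99 to 0.02 in that comparison. Rel, an NF-kappaB subunit, had 150.4 and 538.8 against 46.6, 3.23-fold and 11.6-fold higher. Il2ra, the high-affinity chain of the interleukin 2 receptor, was at least 3.60-fold and 9.29-fold higher, Myb 5.14-fold and 2.15-fold, and the cell cycle factor E2f1 at least 3.10-fold and 5.77-fold. By leading probe sets, Rel, Il2rb and Il7r were lower in VILLIN-HA/CL4-TCR than in Villin-HA + CL4-TCR cells by 3.58-fold, 3.21-fold and 2.71-fold, and Myb was 2.39-fold higher. The other Il2rb probe set gave 0.01 there, while both of Il7r and all 3 of Myb passed 2-fold.

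Of 13 measured targets and regulators of p53, whose own gene was not analysed here, 1 was higher and 1 lower in VILLIN-HA/CL4-TCR cells, and 4 higher and 2 lower in Villin-HA + CL4-TCR cells. The first count is near the 14.1% over all genes, and the second stands beside 21.4%. Sesn2, a stress gene, was at least 3.70-fold and 2.64-fold higher by its leading probe set, the other giving 0.29 and -0.41. Mdm2, the ligase that degrades p53, was 2.83-fold lower in VILLIN-HA/CL4-TCR cells, with another probe set at 0.02. Perp and Gtse1 were at least 4.95-fold and 3.47-fold higher in Villin-HA + CL4-TCR cells, where Zmat3 and Sesn1 were 2.26-fold and 2.21-fold lower. Perp and Gtse1 were 4.43-fold and 2.08-fold lower in VILLIN-HA/CL4-TCR than in Villin-HA + CL4-TCR cells, and Sesn1 was 2.45-fold higher. Of 9 genes that act on the turnover or anchoring of the Mcl1 and Bim proteins, none passed 2-fold in VILLIN-HA/CL4-TCR cells. In Villin-HA + CL4-TCR cells 2 were higher and 1 lower. Over all measured genes 14.1% and 21.4% passed 2-fold. Pim1, a kinase gene induced by cytokines, had 170 and 1126.5 against 220.6, 5.11-fold higher in Villin-HA + CL4-TCR cells, and was 6.63-fold lower in VILLIN-HA/CL4-TCR than in those cells. Dynll2, a dynein light chain that binds Bmf, was 2.65-fold higher and Gsk3b, a kinase that marks Mcl1 for degradation, 2.15-fold lower in Villin-HA + CL4-TCR cells, the 6 Gsk3b probe sets running from -1.11 to 0.28. Btrc was at least 2.48-fold lower in VILLIN-HA/CL4-TCR than in Villin-HA + CL4-TCR cells by its leading probe set, the 3 measured ones running from -1.31 to 0.25.

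**Figure D4:**
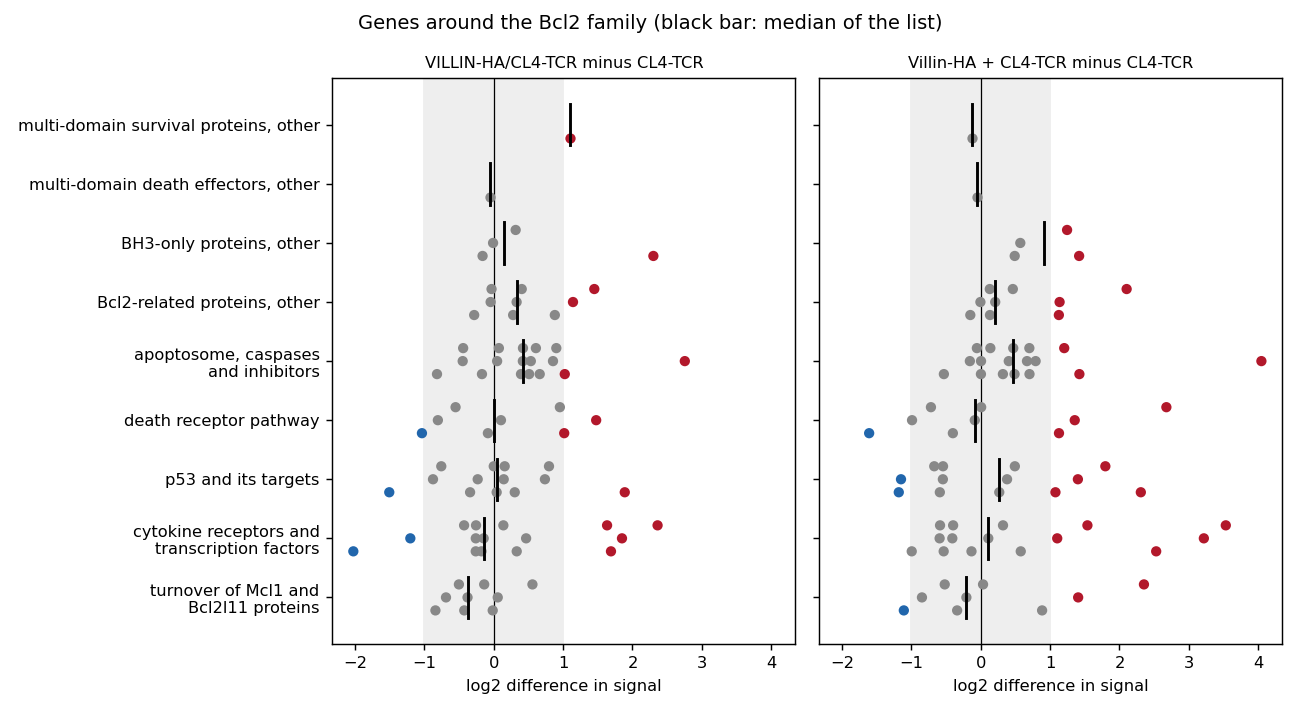
log2 difference in signal from CL4-TCR of the measured genes of 9 lists around the Bcl2 family, for VILLIN-HA/CL4-TCR (left) and Villin-HA + CL4-TCR (right), 1 point a gene by its leading probe set, red for at least 2-fold higher, blue for at least 2-fold lower, and a black bar for the median of the list. Values against the floor are drawn at their bound. Birc5 lies farthest right among the caspase genes in both panels, at 2.75 and 4.04.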

How the data were processed

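The deposited values are intensity values made by the authors with MAS5, per the submitters' processing notes, which give no version, with no background settings given in the sources used. MAS5 combines perfect-match and mismatch probes into 1 linear signal, and the 2% trimmed mean was 150 on each of the 3 arrays. Biotin-labelled cRNA came from 6 µg of RNA, per the labels' protocols. Of 45101 probe sets, 34958 had 1 gene symbol in the platform annotation, 932 several and 9211 none, and 34754 of the first were updated by Entrez identifier to RefSeq of GRCm38.p6. The floor, the calls and the promoter search were computed in Python 3.11.15 with pandas 2.3.3 and NumPy 2.4.6. With 1 array per group no test was run, and the number of arrays limits the precision. Alternatives changed the floor, scaling, choice of probe sets, log scale and fold. The members and the 9 lists, in which 80 of 90 genes were named, were chosen with earlier results of these data known. The text names all members, every Bcl2 family gene of the lists, and from each list up to 3 higher and 3 lower genes a comparison, in order of size, and the 3 genes nearest in pattern to members past 2-fold. Detection calls and probe positions were not used here.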

Additional observations from a re-analysis of the deposited data

How the results depend on the processing

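No paired analysis was possible because each group holds 1 array. The first comparison sets VILLIN-HA/CL4-TCR against CL4-TCR, the second has Villin-HA + CL4-TCR over CL4-TCR, and the third sets VILLIN-HA/CL4-TCR against Villin-HA + CL4-TCR. The 10 calls of members kept their direction under the 8 alternatives of floor, scaling, probe set and pseudocount wherever these gave a value, and 6 of the 10 also stayed past 2-fold in each. These 6 were the calls of Bcl2l1 and Pmaip1, that of Bbc3 in the first comparison and that of Bcl2 in the second. Bcl2l1, Bbc3 and Pmaip1 each have 1 probe set above the floor. The alternatives of probe set therefore gave the same value for them or none, and could not remove their calls. Bcl2l1 has no value under the median over probe sets, which puts it at the floor, and that setting left 0 members higher and 2 lower in VILLIN-HA/CL4-TCR cells, in place of 2 and 1. With 1.5-fold in place of 2-fold, 6 of 8 members passed in the third comparison in place of 3. Across all genes 1.5-fold was passed by 3794, 5374 and 4489 genes in the 3 comparisons, in place of 1583, 2616 and 1822, since a lower threshold admits more genes. With the floor at the 35th percentile, which admits dimmer genes, the first comparison had 2385 and the third 2993, and at the 65th percentile the third had 1182. Scaling moved the split of calls: 52.9% of calls were higher in the first comparison and 31.9% with arrays scaled to housekeeping genes, 55.6% in the second against 38.3% scaled to the same median and 36.9% scaled to housekeeping genes, and 40.7% in the third against 67.1% scaled to the same median. Among the members, 3 of 4 calls in the second comparison were higher, against 3 of 5 scaled to the same median and 2 of 4 scaled to housekeeping genes, and in the third 1 of 3 against 2 of 4 scaled to the same median. Scaling to housekeeping genes shifted the median of all genes by -0.20 and -0.21 in the comparisons with CL4-TCR, and scaling to the same median by -0.19 in the second comparison and by 0.24 in the third comparison. Signal near the floor limits Bak1, Bbc3 and Pmaip1.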
